A study of Mus musculus with 15 samples.

Results

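The claudin family was examined in SVI cells, a conditionally immortalised mouse podocyte line, with and without mechanical stretch. Podocytes are the epithelial cells that wrap the capillaries of the kidney glomerulus. The genes examined were 10 of the 34 genes named Cldn and a number among the 55416 genes of the count table, namely Cldn1, Cldn2, Cldn3, Cldn4, Cldn5, Cldn6, Cldn7, Cldn12, Cldn15 and Cldn19. They were selected with their counts in the stretched and unstretched samples already known, so their differences between those groups are given as a description and carry no test. All 10 were present in the table.

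Differentiated cells of the line were grown on flexible silicone membranes, and polyadenylated RNA was sequenced from 15 samples. Experiment 1 held 6 low-stretch samples, with a membrane deflection labelled 5 to 6 mm, and 3 unstretched samples. Experiment 2 held 3 high-stretch samples, with a deflection labelled 7 to 8 mm, and 3 unstretched samples of its own. Every sample came from this single line, no genetic change was labelled in any group, and stretch amplitude and experiment cannot be told apart because each amplitude was run in 1 experiment only.

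Claudins are membrane proteins of the tight junction. They pair with claudins of the neighbouring cell, and the set a cell makes decides whether the space between cells is sealed or lets selected ions and water pass. In the kidney each segment carries its own set, and mature podocytes replace much of the tight junction with the slit diaphragm, in which some claudins are still found.

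Expression is given in CPM, the share of a gene in the counts of its library, with library sizes scaled by TMM normalization, and a gene was taken to reach 1 CPM when the mean of at least 1 group did. The claudins that reached 1 CPM were Cldn1, Cldn2, Cldn12, Cldn15 and Cldn19, which is 5 of the 10. Cldn1, Cldn2 and Cldn12 were at or above 1 CPM in all 15 samples, Cldn19 in 10 and Cldn15 in 6. Just inside the threshold was Cldn15, whose highest group mean was 2.22 CPM. The other 5 were far outside it. Cldn7, a sealing claudin of the distal nephron, had at most 13 counts and 0.0417 CPM in any sample, and Cldn4, also of the distal nephron, had at most 8 counts. Cldn5, the main claudin of endothelium and the one best known from podocytes, had at most 4 counts. Cldn6, a claudin of embryonic epithelia, also had at most 4, and Cldn3, a sealing claudin, had at most 2. A count of 3, taken here as the floor of detection, corresponded to between 0.00700 and 0.0216 CPM, so these levels lay at or close to the floor. Among the 24 other Cldn genes none reached 1 CPM, and the highest value in any sample was 0.644 CPM, for Cldn9.

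**Figure D1:**
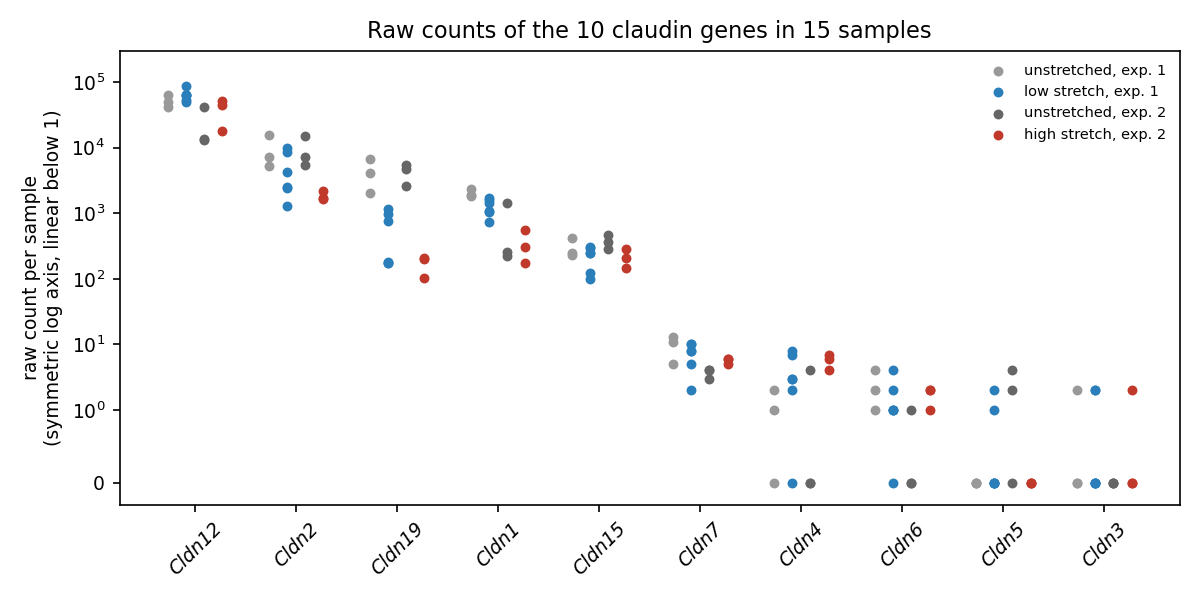
Raw counts of the 10 claudin genes (vertical axis, logarithmic above 1 and linear below) in the 15 samples, with points coloured by group. Cldn12, Cldn2, Cldn19, Cldn1 and Cldn15 stand apart from the other 5 genes, none of which has more than 13 counts in a sample.

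Total counts ran from 172.2 to 396.7 M (megacounts) per sample. The libraries of the experiments stood apart from each other: mitochondrial genes took 3.55% to 5.21% of the counts in experiment 1 and 1.14% to 2.60% in experiment 2, and edgeR's quasi-likelihood test between the unstretched groups alone called 62.5% of 20707 genes (32.7% lower and 29.7% higher in experiment 2). Each stretched group was therefore set against its own unstretched group. Of the defining podocyte genes, Nphs1 (nephrin) had group means from 0.289 to 0.673 CPM, whereas Synpo (synaptopodin) had 316 to 659.6 CPM. The labels call the cells podocytes, but this slit diaphragm gene stayed below 1 CPM in every group mean.

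Both annotated Cldn19 transcripts code for protein and differ at the end of the coding sequence, and both are shown because Cldn19 had the largest difference with stretch among the 10 genes. The sequences below come from the GENCODE M21 transcripts of the GRCm38 build. Lower case gives the last 24 of 626 shared coding bases (chr4:119258937-119258960, plus strand), and capitals give the coding bases that differ, through the stop codon.
Cldn19-201: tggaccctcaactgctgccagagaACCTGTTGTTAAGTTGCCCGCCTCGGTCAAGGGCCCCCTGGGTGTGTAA
Cldn19-202: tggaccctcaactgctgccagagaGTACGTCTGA
The first form has 224 codons before its stop and the second 211, so the difference lies in the cytoplasmic tail of the claudin.

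Cldn19 forms, with Cldn16, the cation-selective pores through which magnesium and calcium are reabsorbed in the thick ascending limb. It had 12.2, 6.01 and 21.2 CPM in the unstretched samples of experiment 1 and a lowest, median and highest value of 0.560, 1.45 and 3.58 CPM in the 6 low-stretch samples. All low-stretch samples were below all unstretched samples of that experiment. In experiment 2 it had 29.4, 18.8 and 19.9 CPM without stretch and 0.430, 1.37 and 0.839 CPM with high stretch. These groups did not overlap either, and the high-stretch samples had at most 1.37 CPM. The log2 fold change against unstretched was -2.96 ± 0.61 (SE) with low stretch and -4.70 ± 0.46 (SE) with high stretch.

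Cldn2 is the channel of the proximal tubule that lets sodium and water pass between cells. Without stretch in experiment 1 it had 20.9, 15.6 and 49.0 CPM, and with low stretch the lowest, median and highest values were 4.00, 9.24 and 30.8 CPM. These groups overlapped: the 2 low-stretch samples at 29.2 and 30.8 CPM were above 2 of the 3 unstretched samples. In experiment 2 it had 44.8, 39.5 and 56.3 CPM without stretch and 6.90, 12.1 and 9.10 CPM with high stretch, with no overlap. Its log2 fold change was -0.93 ± 0.59 (SE) with low stretch and -2.33 ± 0.26 (SE) with high stretch.

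Cldn1, a barrier claudin that in the glomerulus is known from the parietal cells of Bowman's capsule, had 6.79, 5.61 and 5.80 CPM in the unstretched samples of experiment 1. In the low-stretch samples it had 2.50, 3.69 and 5.69 CPM as lowest, median and highest value, and a single low-stretch sample reached into the unstretched range. In experiment 2 it had 1.63, 1.60 and 5.37 CPM without stretch and 1.25, 1.23 and 2.26 CPM with high stretch. The unstretched sample at 5.37 CPM stood far above the other two, and the groups overlapped. Its log2 fold change was -0.66 ± 0.21 (SE) with low stretch and -0.87 ± 0.50 (SE) with high stretch.

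Cldn15, a cation pore best known from the small intestine, had 0.688, 0.735 and 1.33 CPM in the unstretched samples of experiment 1 and 0.326, 0.744 and 0.910 CPM as lowest, median and highest low-stretch value. In experiment 2 it had 2.93, 2.65 and 1.06 CPM without stretch and 1.17, 1.47 and 0.592 CPM with high stretch. The groups overlapped in both experiments. Its log2 fold change was -0.47 ± 0.33 (SE) with low stretch and -1.04 ± 0.47 (SE) with high stretch.

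Cldn12, a widely expressed claudin that lacks the family's usual anchor for junction scaffold proteins, was the one expressed member with positive fold changes. It had 148, 192 and 133.4 CPM in the unstretched samples of experiment 1 and 165, 201 and 229.8 CPM as lowest, median and highest low-stretch value. In experiment 2 it had 83.8, 96.2 and 153 CPM without stretch and 209.7, 127 and 180.5 CPM with high stretch. The groups overlapped in both experiments. Its log2 fold change was 0.29 ± 0.14 (SE) with low stretch and 0.63 ± 0.28 (SE) with high stretch.

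**Figure D2:**
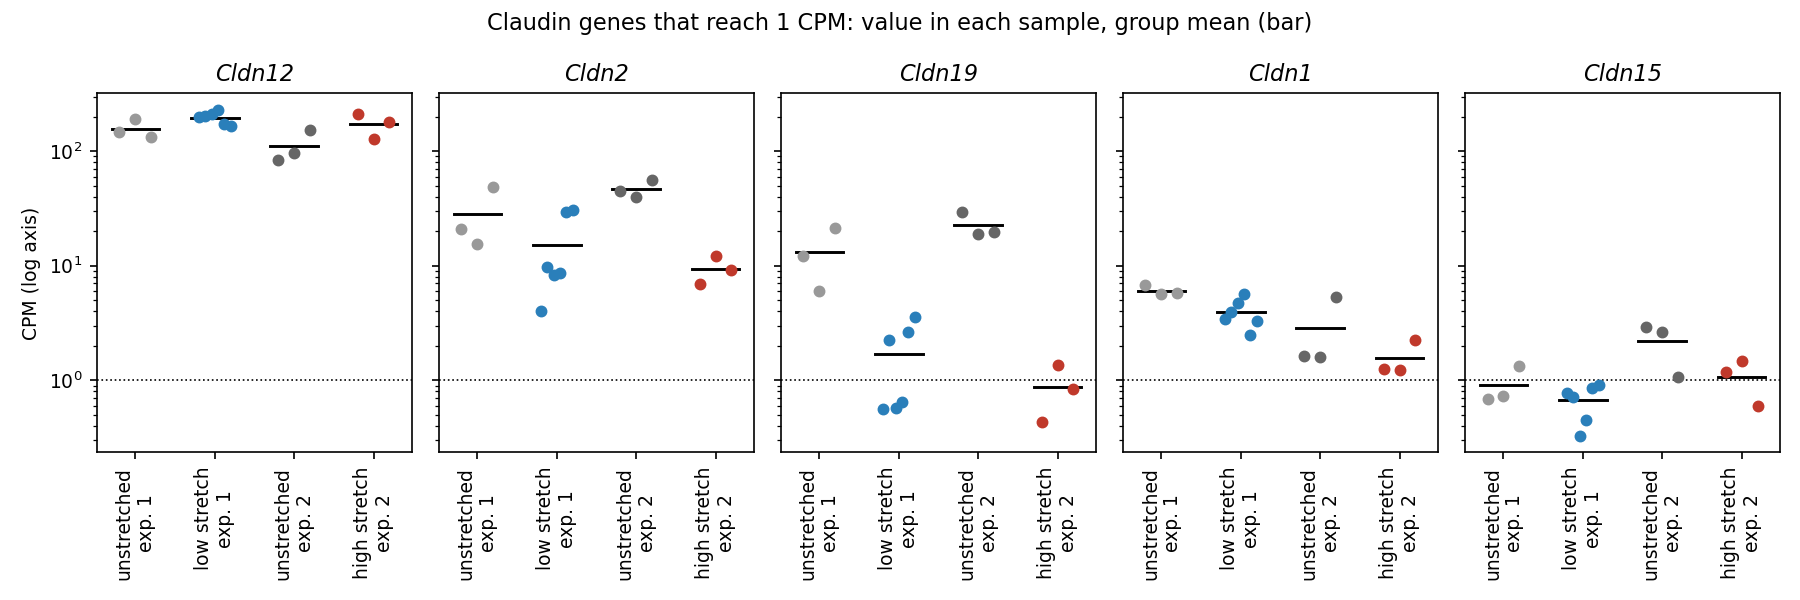
CPM (logarithmic axis) of the 5 claudins that reach 1 CPM, in each sample of the 4 groups, with the group mean as a bar and 1 CPM as a dotted line. Cldn19 is below its unstretched samples in every stretched sample of both experiments, whereas the points of Cldn1, Cldn12 and Cldn15 overlap.

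All genes were fitted with edgeR, and a gene was called where the p-value of its quasi-likelihood test, adjusted over all genes tested by the Benjamini-Hochberg method, was under 0.05. With low stretch 5.45% of 21672 genes were called, 3.60% lower and 1.85% higher. Of the 10 claudins 6 passed the filter on low counts there and 1, Cldn19, was called, in the lower direction. With high stretch 3.47% of 18524 genes were called, 2.16% lower and 1.31% higher, and 5 of the 10 claudins passed the filter, of which Cldn19 and Cldn2 were called lower. Because the members were selected on these same contrasts, nothing is read from their share against that of all genes. The same holds for groups without overlap, which occurred in 15.9% of all genes tested with low stretch and in 20.9% with high stretch.

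Each of these calls was lost without at least 1 sample. With 1 sample left out, Cldn19 was called in 7 of 9 fits with low stretch. With high stretch Cldn19 and Cldn2 were each called in 5 of 6. Without unstretched replicate 1 or 3 of experiment 1 no claudin was called with low stretch, and the log2 fold change of Cldn19 was -3.02 and -2.44. Without high-stretch replicate 3 none was called with high stretch, with log2 fold changes of -4.64 for Cldn19 and -2.27 for Cldn2. Without unstretched replicate 3 of experiment 2, 4 claudins were called. The number of all genes called also varied widely between fits with a sample left out, so nothing is read from this count.

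The codes in the sample descriptions form an unbroken series of positions. It was divided here into 6 runs of neighbouring codes, each starting at an unstretched sample, so each run holds 1 unstretched sample by construction. The labels do not mark these runs or say what the positions stand for. Within its own run, Cldn19 was lower in 6 of 6 low-stretch samples, by 5.44-fold to 21.8-fold, and in 3 of 3 high-stretch samples, by 13.7-fold to 68.5-fold. Cldn2 was lower in 6 of 6 low-stretch samples, by 1.59-fold to 5.22-fold, and in 3 of 3 high-stretch samples, by 3.28-fold to 6.49-fold. The high low-stretch values of Cldn2 thus came from the run whose unstretched sample was also high, at 49.0 CPM. Cldn12 was higher than the unstretched sample of its run in all 9 stretched samples, at 1.10 to 1.37 times its level with low stretch and 1.18 to 2.50 times with high stretch. Cldn1 was lower in 5 of 6 low-stretch samples and Cldn15 in 4 of 6, and both were lower in 3 of 3 high-stretch samples.

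**Figure D3:**
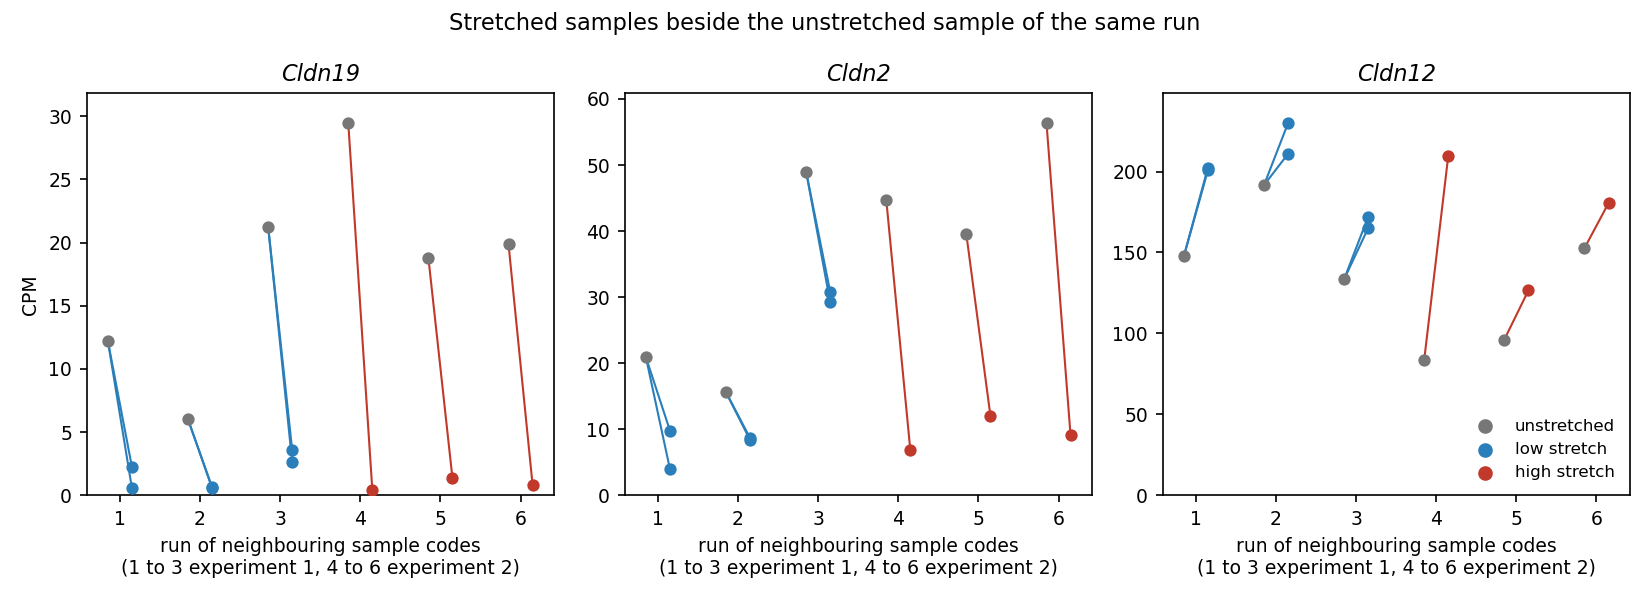
CPM (linear axis from 0) of Cldn19, Cldn2 and Cldn12 in each run of neighbouring sample codes, with a line from the run's unstretched sample to each stretched sample. All 9 lines go down for Cldn19 and for Cldn2, and all 9 go up for Cldn12.

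In experiment 1 stretched and unstretched samples of the same run deviated together from their group means. The mean correlation across 22015 genes was 0.438, from 0.328 to 0.570 in single pairs. The mean between runs, -0.218, is no separate result, because centring on group means brings the average over all pairs close to 0. A fit of experiment 1 with the run as a block called 28.2% of 21672 genes, and among the claudins it called Cldn19 (-3.08 ± 0.29, SE), Cldn2 (-1.10 ± 0.22), Cldn1 (-0.71 ± 0.15) and Cldn12 (0.30 ± 0.06), as log2 fold changes. As above, this describes the members and does not test them. In experiment 2 the run is the same as the replicate number. Its same-run pairs had a mean correlation of 0.175, from -0.163 to 0.449, and were not taken as pairs. Calls with the run as a block there carry no added weight.

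The difference between the log2 effects of high and low stretch was -1.75 ± 0.90 (SE) for Cldn19, -1.41 ± 0.81 for Cldn2, -0.60 ± 0.60 for Cldn15, -0.22 ± 0.52 for Cldn1 and 0.32 ± 0.28 for Cldn12. The edgeR test of that difference called 0% of 22015 genes. At an unadjusted p under 0.05 it had 547 genes, and DESeq2 also called 0.

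The comparison of the unstretched groups was not itself used to select the members, and it was tested. Its samples, however, enter the stretch contrasts known at selection, so the results for the members are a description here too. Of the 5 claudins tested 1 passed, against the 62.5% of all genes called there. Cldn15 was higher in experiment 2, at 2.22 ± 1.01 CPM against 0.917 ± 0.356 CPM (SD, n = 3 each), with a log2 fold change of 1.27 ± 0.44 (SE) and an edgeR adjusted p of 0.0341. Without replicate 1 or 2 of either group the adjusted p of Cldn15 lay between 0.0647 and 0.114. For Cldn1 the change was -1.11 (edgeR adjusted p = 0.0548), for Cldn12 -0.53 (0.0926), for Cldn19 0.77 (0.132) and for Cldn2 0.70 (0.147).

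Levels of different genes were compared in TPM, an abundance that is scaled to transcript length and summed over the transcripts of a gene. In the unstretched samples of experiment 1 the order was Cldn12 at 125 ± 27.3 TPM, Cldn2 at 20.0 ± 12.6, Cldn19 at 12.3 ± 6.86, Cldn1 at 3.79 ± 0.43 and Cldn15 at 0.998 ± 0.395 (SD, n = 3). The ranges of Cldn2 and Cldn19 overlapped and the other neighbours did not. Without stretch in experiment 2 the first places were the same, with Cldn12 at 73.5 ± 29.9 TPM, Cldn2 at 22.5 ± 8.61 and Cldn19 at 14.5 ± 3.21 (SD, n = 3), followed by Cldn15 at 1.56 ± 0.53 and Cldn1 at 1.33 ± 1.26. There the ranges of Cldn2 and Cldn19 overlapped, as did those of Cldn15 and Cldn1.

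Cldn19 held the third place without stretch and a lower one with it. With low stretch Cldn12 had 144 ± 17.1 TPM, Cldn2 9.71 ± 7.76, Cldn1 2.20 ± 0.55, Cldn19 1.49 ± 1.12 and Cldn15 0.717 ± 0.263 (SD, n = 6). With high stretch Cldn12 had 99.9 ± 27.3 TPM, Cldn2 3.99 ± 0.91, Cldn15 0.731 ± 0.305, Cldn1 0.605 ± 0.206 and Cldn19 0.487 ± 0.237 (SD, n = 3). The ranges of the last 3 genes overlapped with high stretch. With low stretch the ranges of each gene and the next overlapped from Cldn2 downwards, and the range of Cldn12 stood apart in all groups.

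Both Cldn19 transcripts followed the gene. Cldn19-201, the longer coding form shown above, had 7.24 ± 3.93 TPM (SD, n = 3) without stretch in experiment 1, 0.884 ± 0.645 (n = 6) with low stretch, 8.81 ± 1.62 (n = 3) without stretch in experiment 2 and 0.290 ± 0.159 (n = 3) with high stretch. Cldn19-202 had 5.05 ± 2.96, 0.606 ± 0.477, 5.72 ± 1.67 and 0.197 ± 0.078 TPM in the same order. The share of Cldn19-201 in the gene's TPM had group means between 58.1% and 61.1%, with SDs from 2.77 to 5.15 percentage points. The sample ranges of this share overlapped between all groups.

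**Figure D4:**
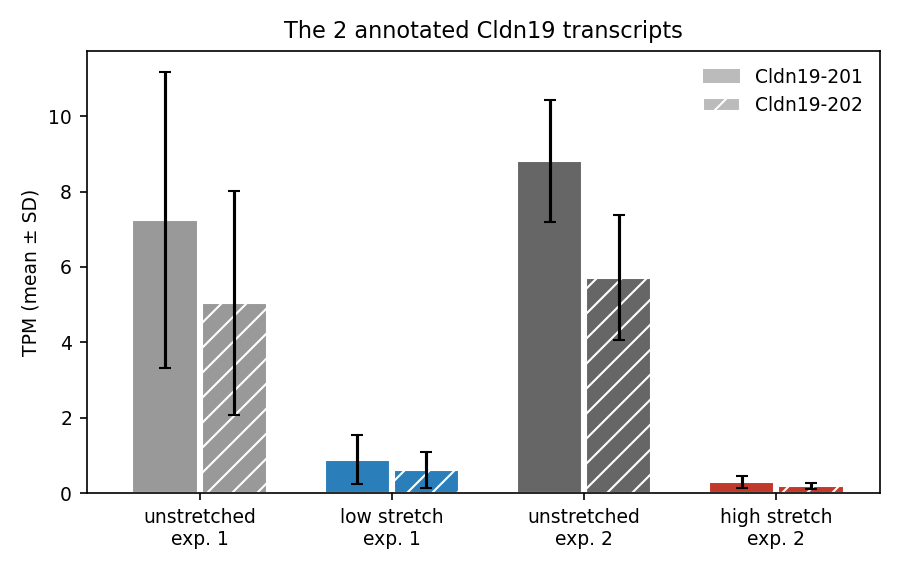
TPM (mean ± SD) of the 2 annotated Cldn19 transcripts in the 4 groups, with plain bars for Cldn19-201 and hatched bars for Cldn19-202. Both transcripts are low in the stretched groups, and Cldn19-201 is the higher one in each group.

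GENCODE places Gm12927 on the opposite strand of Cldn19, with an overlap of 1562 bases, and the strand setting of the counting is not given in the sources used here. Gm12927 had group means between 0.000966 and 0.0490 CPM, far below those of Cldn19, and its highest sample had 0.0631 CPM. Cldn2-201 made up 94.2% to 95.2% of the TPM of Cldn2 in the group means, and Cldn1-201 made up 99.1% to 99.9% of Cldn1.

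Cldn12 was spread over 8 annotated transcripts. Its main transcript, Cldn12-201, took 44.3% and 43.8% of the gene's TPM in the unstretched and low-stretch samples and 38.5% and 39.5% in the unstretched and high-stretch samples. Cldn12-208, a transcript of 349 bases with no coding annotation, took 23.2% and 24.1% in experiment 1 and 34.8% and 34.4% in experiment 2. Coding transcripts together held 68.6 ± 1.99% (SD, n = 3) and 67.3 ± 2.17% (n = 6) of its TPM in experiment 1, and 55.7 ± 7.26% (n = 3) and 57.7 ± 4.32% (n = 3) in experiment 2, in the order unstretched and stretched. The mean share thus differed more between the experiments than between the groups of 1 experiment.

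Across the 15 samples, after centring log2 CPM on the mean of each experiment, Cldn2 and Cldn19 had a Pearson r of 0.904, Cldn12 and Cldn19 of -0.812, and Cldn12 and Cldn15 of -0.821. These values describe the samples, which share libraries and the contrast on which the genes were selected. Among 12935 genes compared in this way, those most like Cldn19 were Fgfr3 (r = 0.987), a fibroblast growth factor receptor, Plekha4 (0.984), Adra1b (0.983), an adrenergic receptor, C1qtnf1 (0.983) and Rasgrp2 (0.983). Those most like Cldn12 were Ippk (0.976), an inositol phosphate kinase, Ccnyl1 (0.974), Gm16464 (0.973), Ddx21 (0.972), an RNA helicase, and Ankrd1 (0.971), a known target of the YAP coactivator in stretched cells.

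The proximal promoters of Cldn2 and Cldn19 are shown because these genes varied together. Each window is 200 bases upstream of the RefSeq start in build GRCm38.p6, given 5′ to 3′ on the strand of the gene, for Cldn2 at chrX:139800608-139800807 and for Cldn19, the first of 2 starts, at chr4:119255214-119255413, both on the plus strand. Capitals mark matches to the motifs searched.
Cldn2: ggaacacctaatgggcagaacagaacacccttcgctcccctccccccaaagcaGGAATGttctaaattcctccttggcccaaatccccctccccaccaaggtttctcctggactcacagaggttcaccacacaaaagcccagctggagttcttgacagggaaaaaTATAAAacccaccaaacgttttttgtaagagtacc
Cldn19: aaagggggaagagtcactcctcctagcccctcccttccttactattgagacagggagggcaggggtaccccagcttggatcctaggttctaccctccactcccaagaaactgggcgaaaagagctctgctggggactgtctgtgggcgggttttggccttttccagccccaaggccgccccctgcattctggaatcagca
The motifs were the E-box of the SNAI and ZEB repressors (CAGGTG), the TEAD site (CATTCC) and the AP-1 site (TGACTCA), each on both strands, and the TATA box (TATAAA) on the strand of the gene. None of them contains another. The Cldn2 window held the TEAD letters as GGAATG at position -147 and TATAAA at -35. The windows of Cldn19, Cldn12, Cldn1 and Cldn15 held none of the 4 motifs. Of 32843 RefSeq promoter windows of this length, 13.9% held CAGGTG, 10.1% CATTCC, 3.66% TGACTCA and 6.28% TATAAA. A match is a description of letters and not of a bound site.

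Other claudins were tested in the same fits. With low stretch 5 of the 24 passed the filter on low counts and none was called by edgeR, while 4 of the 5 had groups without overlap, beside 15.9% of all genes tested. These 4 went in both directions. Cldn8, Cldn10 and Cldn20 were lower with low stretch, and Cldn24 was higher (log2 fold change of 1.10, edgeR adjusted p = 0.192). The lowest edgeR adjusted p-values were 0.0503 for Cldn8, with group means of 0.0213 CPM with low stretch and 0.0790 CPM without, and 0.0558 for Cldn9. Cldn8 passed the filter only through the unstretched samples, where it was high, so the filter partly fixed its direction. With the run as a block Cldn8 (edgeR adjusted p = 0.0136), Cldn9 (0.00122), Cldn10 (0.0186) and Cldn20 (0.0156) were called lower, beside 28.2% of all genes. With high stretch 3 passed the filter and Cldn9 was called lower (edgeR adjusted p = 0.0227), beside 2.16% of all genes. It had 102, 50 and 32 counts without stretch and 2, 4 and 2 counts with high stretch, so that its level there lay at or next to the floor of 3 counts and no fold is given. It passed the filter only through the unstretched samples, so the filter partly fixed the direction of this call, which is given as a description. Cldn9 is a close relative of Cldn6, and how reads shared by such genes were counted is not given in the sources used here. Without high-stretch replicate 1 or 3, or unstretched replicate 1, its adjusted p was between 0.0791 and 0.143. Between the unstretched groups 2 of 5 other claudins tested were called, both lower in experiment 2, beside 62.5% of all genes. Cldn10 had 33, 27 and 39 counts in experiment 1 and 0, 4 and 6 counts in experiment 2, and Cldn20 had 83, 69 and 77 counts against 12, 3 and 20. Both passed the filter only through experiment 1, where they were high, so no fold is given and nothing is drawn from these calls.

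The other parts of the tight junction were examined through 33 genes for its membrane proteins, scaffolds and polarity complexes, of which 31 passed the filter in each comparison. With low stretch 2 were lower, 1 was higher and 28 were not called, with a median log2 fold change of -0.05 against 0.01 over all genes. With high stretch 2 were lower, none was higher and 29 were not called, with a median of -0.13 against -0.02. The shares called were 9.68% and 6.45%, beside 5.45% and 3.47% of all genes. This list, the regulators and the cell type lists below were chosen with earlier results of these data known. Their calls and shares are therefore given as a description, and nothing is read from the shares against those of all genes.

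Marveld3, a tetraspan relative of occludin, was called in both comparisons. It had 0.321 ± 0.058 CPM (SD, n = 6) with low stretch against 0.696 ± 0.058 CPM (n = 3), a log2 fold change of -1.15 ± 0.17 (SE; edgeR adjusted p = 0.00695). With high stretch it had 0.255 ± 0.084 CPM against 0.964 ± 0.475 CPM (n = 3 each), a change of -1.93 ± 0.41 (edgeR adjusted p = 0.0472), and its level stayed below 1 CPM in every group mean. Cxadr, an adhesion protein of the junction, fell with low stretch by 0.73 ± 0.18 on the log2 scale (edgeR adjusted p = 0.0403), and Pard3, a polarity scaffold, rose by 0.25 ± 0.06 (adjusted p = 0.038). With high stretch the values were -0.93 ± 0.30 for Cxadr (adjusted p = 0.18) and 0.36 ± 0.17 for Pard3 (0.412). Jam2, a junctional adhesion molecule, fell with high stretch from 4.55 ± 0.51 to 1.57 ± 0.19 CPM (SD, n = 3 each), a log2 fold change of -1.54 ± 0.22 (SE; edgeR adjusted p = 0.0138). Its change with low stretch was -1.83 ± 0.63 (adjusted p = 0.114), and with the run as a block it was called there (-1.63, adjusted p = 0.000106).

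Several genes for proteins that organise claudin strands were not called in either comparison by the fit without a block. Tjp1 (ZO-1), the scaffold to which most claudins bind, had log2 fold changes of -0.06 ± 0.11 (SE) with low stretch and -0.22 ± 0.33 with high stretch. Tjp3 (ZO-3) had -0.35 ± 0.25 and -1.22 ± 0.36, and F11r, which codes for JAM-A, had 0.30 ± 0.10 and 0.61 ± 0.16. The cingulin genes Cgn and Cgnl1 had -0.48 ± 0.16 and 0.86 ± 0.30 with low stretch and -0.13 ± 0.25 and 0.55 ± 0.29 with high stretch. Ocln, coding for occludin, was at most at 0.217 CPM in any group mean, with changes of 0.01 ± 0.31 and -0.55 ± 0.52, and Marveld2, coding for tricellulin, was at most at 0.239 CPM. With the run as a block in experiment 1, 15 of the 31 tight junction genes tested were called, 10 lower and 5 higher (48.4%, beside 28.2% of all genes), among them F11r (edgeR adjusted p = 0.0161), Cgn (0.00406), Cgnl1 (0.00322) and Tjp3 (0.0482). With high stretch Tjp3 was called lower by DESeq2 (adjusted p = 0.0164), without a filter on low counts (edgeR adjusted p = 0.0445), with all 15 samples in one fit (0.043) and with the run as a block (0.00337), at log2 fold changes between -1.17 and -1.25.

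**Figure D5:**
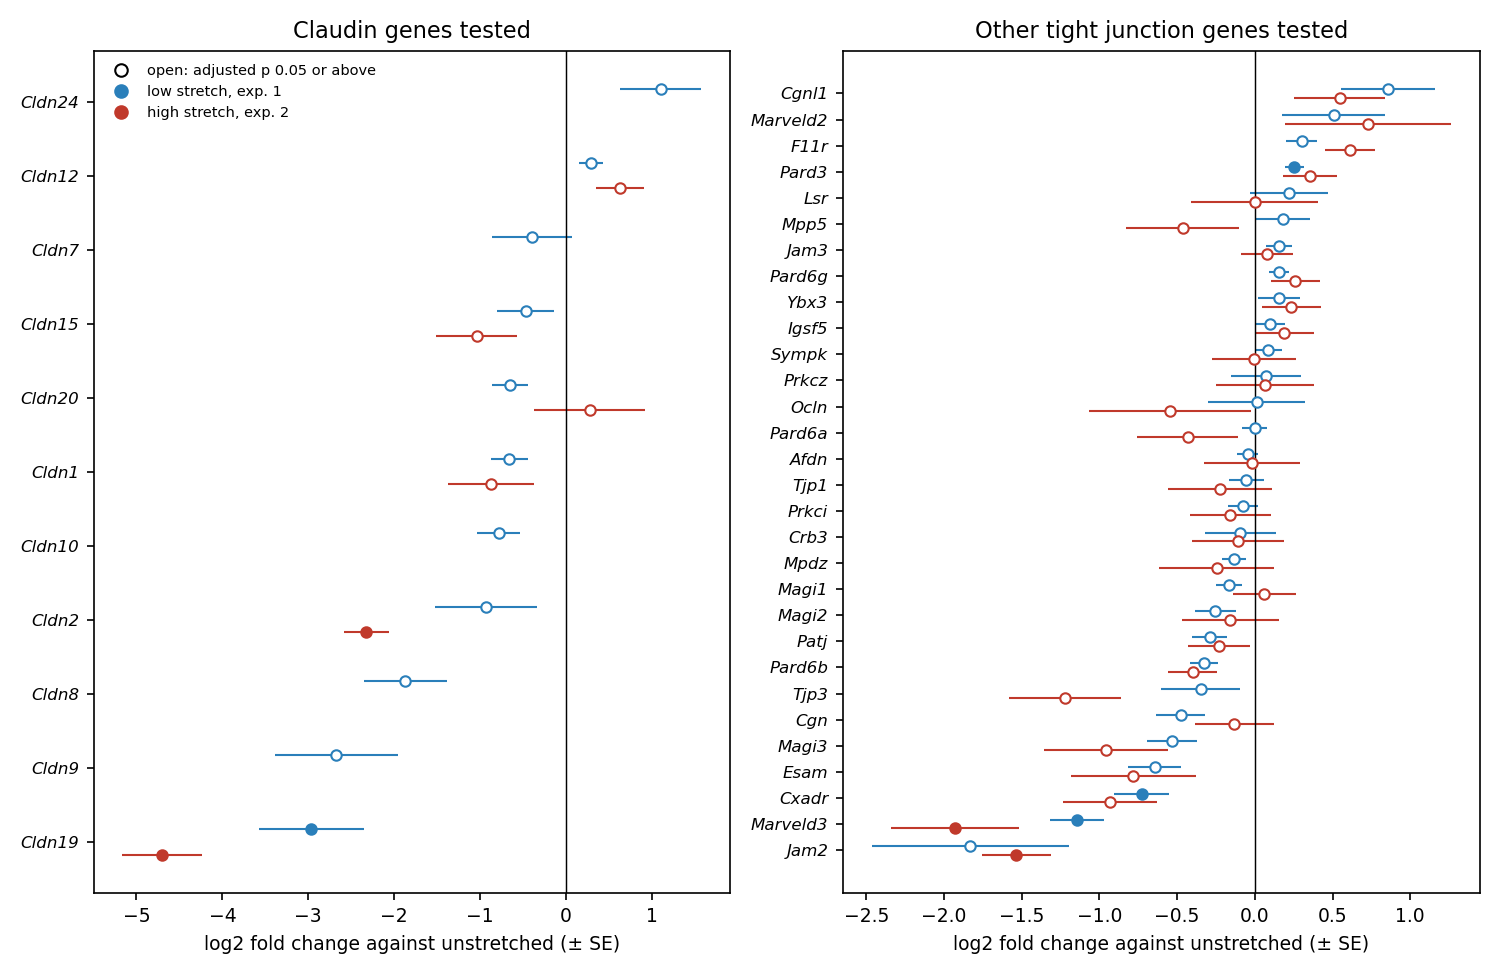
Log2 fold changes (± SE) against the unstretched samples of the same experiment for the claudin genes tested (left, with the members' values as a description) and other tight junction genes tested (right), in blue for low and red for high stretch, with filled points at an adjusted p under 0.05. Cldn19 and Cldn2 lie below -2 with high stretch, where no fold is drawn for Cldn9 and Cldn24 because their median counts lay at or under the floor of 3, while most other tight junction genes lie between -1 and 1.

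Each call in the tight junction list except that of Marveld3 with low stretch was lost without at least 1 sample. With 1 of the 9 samples of experiment 1 left out, Cxadr was called in 3 of 9 fits and Pard3 in 2 of 9. Cxadr was not called without low-stretch replicate 1, 2, 3 or 4 or unstretched replicate 1 or 3 (adjusted p from 0.0532 to 0.227), and Pard3 without low-stretch replicate 1, 2, 3 or 4 or any unstretched sample (0.0511 to 0.193). Without high-stretch replicate 1, 2 or 3 the adjusted p of Jam2 was between 0.059 and 0.117 and that of Marveld3 between 0.131 and 0.202. Without unstretched replicate 1 of experiment 2 Jam2 had 0.0791 and Marveld3 0.1. Other settings were DESeq2, RLE instead of TMM scaling, no filter, all 15 samples in one fit, a replicate block and the run block. Of these 6, Marveld3 with low stretch was called in 5, Cxadr in 4 and Pard3 in 3. With high stretch, where both blocks are the same fit, Marveld3 was called in 6 and Jam2 in 5.

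Of 20 transcription and splicing regulators known for epithelial junction genes, 13 passed the filter with low stretch and 14 with high stretch. With low stretch 2 were higher and 1 was lower (23.1% of those tested, beside 5.45% of all genes). As above, the list was chosen with earlier results known, so its shares are a description. Zeb2, a repressor of epithelial genes, rose from 35.1 ± 2.57 CPM (SD, n = 3) to 55.1 ± 6.60 CPM (n = 6), a log2 fold change of 0.62 ± 0.11 (SE; edgeR adjusted p = 0.00997). Its relative Zeb1 rose by 0.31 ± 0.08 (adjusted p = 0.0412). Elf3, an epithelial activator, fell by 0.62 ± 0.13 (adjusted p = 0.0212). With high stretch Klf4 alone was called (7.14%, beside 3.47%), and it rose from 2.59 ± 1.15 to 7.94 ± 1.74 CPM (SD, n = 3 each; 1.61 ± 0.35, edgeR adjusted p = 0.0494). There Zeb2 had 0.52 ± 0.31, Zeb1 0.11 ± 0.28 and Elf3 -1.41 ± 0.36, none of them called, with an edgeR adjusted p of 0.0834 for Elf3. Elf3 was however called lower with high stretch by DESeq2 (adjusted p = 0.00327), without a filter on low counts (edgeR adjusted p = 0.0117), with all 15 samples in one fit (0.00594) and with the run as a block (5.5e-05), at log2 fold changes between -1.39 and -1.49. For the block the limit given above for experiment 2 holds. Snai2, which codes for the repressor SLUG, had 0.72 ± 0.23 with low stretch (adjusted p = 0.0951) and 0.95 ± 0.37 with high stretch (0.275), and Snai1 was at most at 0.120 CPM in any group mean.

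With the run as a block 7 of the 13 regulators tested with low stretch were called, 5 higher and 2 lower (53.8%, beside 28.2% of all genes), and 4 of the 14 with high stretch, 3 higher and 1 lower (28.6%, beside 8.35%). With high stretch this block is the replicate number, which was not taken as a pairing. Snai2 was higher in both of these fits (0.72 and 0.98, edgeR adjusted p = 0.000116 and 0.0103), and with low stretch also by DESeq2 (adjusted p = 0.0267).

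Leaving out single samples ended most of the calls made without a block. The adjusted p of Zeb2 was 0.053 without unstretched replicate 3 of experiment 1, and that of Elf3 was 0.0552 to 0.113 without any 1 unstretched sample of that experiment. Zeb1 was not called without low-stretch replicate 1, 2, 4 or 6 or without any 1 unstretched sample (0.0592 to 0.161). Klf4 had adjusted p-values of 0.0687 to 0.197 without any sample of experiment 2 except unstretched replicate 3. In the 6 other settings Zeb2 and Elf3 with low stretch were each called in 4, Zeb1 in 3 and Klf4 with high stretch in 5.

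Cldn2 and Cldn19 are known from tubules, and other genes of tubular cells were therefore listed. Of the 12 tubular genes 6 passed the filter in each comparison. With low stretch 3 of them were called lower and none higher, with 4 negative and 2 positive fold changes (50% called, beside 5.45% of all genes), and with high stretch 2 were called lower and none higher, again with 4 negative and 2 positive (33.3%, beside 3.47%). The positive ones were Slc12a1 (0.69 and 0.24) and Cubn (0.27 and 0.41), neither of them called. The shares called are a description here too, because the list was chosen with earlier results known. Of the 12 genes 4 had a group mean of at least 1 CPM in each group. The summed level of the list was 1279.7 to 1893 CPM in the unstretched samples of experiment 1 and 652 to 1054 CPM with low stretch, and 1717 to 2176 CPM without stretch in experiment 2 and 574.0 to 658 CPM with high stretch. Cdh16, the kidney-specific cadherin, fell in both comparisons (log2 fold changes of -0.93 and -2.09, edgeR adjusted p = 0.0343 and 0.00592). The endocytic receptor gene Lrp2 fell with low stretch (-0.65, adjusted p = 0.0227) and the water channel gene Aqp1 with high stretch (-3.62, adjusted p = 0.0135). In the other comparison, where neither was called, Lrp2 had -0.39 and Aqp1 -1.85 (edgeR adjusted p = 0.733 and 0.133). Cdh1 (E-cadherin) also fell with low stretch, from 0.213 to 0.0949 CPM (edgeR adjusted p = 0.0391). With high stretch Cdh1 had -1.73 (edgeR adjusted p = 0.0934) and was called in 5 of 6 other settings. Of the defining tubular genes, Umod and Epcam were at or near 0 in every group, as were Aqp2, Slc34a1 and Cldn16, with group means of at most 0.0048 CPM. With 1 sample left out, Cdh16 was called in 4 of 9 fits with low stretch (adjusted p up to 0.191) and in 5 of 6 with high stretch, Lrp2 in 5 of 9, Cdh1 in 3 of 9 and Aqp1 in 3 of 6. The part of the tubular genes in the claudin differences was not tested.

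Of the 9 parietal genes 6 passed the filter in each comparison. With low stretch 1 was higher and 1 was lower, with 3 fold changes of each sign, and with high stretch 1 was lower and none higher, with 2 positive and 4 negative. The shares called were 33.3% with low and 16.7% with high stretch, beside 5.45% and 3.47% of all genes. Ncam1, a neural cell adhesion gene, rose with low stretch (0.64, edgeR adjusted p = 0.00512, called in 9 of 9 fits with 1 sample left out) and had 1.03 with high stretch (adjusted p = 0.0523). Krt7, a keratin gene, fell in both comparisons (-2.08 and -2.29, edgeR adjusted p = 0.00529 and 0.0239, called in 9 of 9 and 3 of 6 fits with 1 sample left out). The list summed to 441 to 519 CPM without stretch and 459 to 735 CPM with low stretch in experiment 1, and to 599 to 669 CPM and 609 to 672 CPM in experiment 2. Of its 9 genes 6 had a group mean of at least 1 CPM in each unstretched group and 5 in each stretched group.

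Of the 12 podocyte genes 9 passed the filter with low stretch, of which 1 was higher and none lower, with 7 positive and 2 negative fold changes. With high stretch 8 passed, of which 1 was higher and 1 lower, with 3 positive and 5 negative. That is 11.1% called with low and 25% with high stretch, beside 5.45% and 3.47% of all genes. Nes, coding for the filament protein nestin, rose in both comparisons (0.97 and 1.47, edgeR adjusted p = 0.00506 and 0.0175, called in 9 of 9 and 3 of 6 fits with 1 sample left out). The podocyte transcription factor gene Wt1 fell with high stretch, from 2.81 ± 1.83 to 0.548 ± 0.093 CPM (SD, n = 3 each; edgeR adjusted p = 0.0311), and was called in 2 of 6 fits with 1 sample left out. With low stretch its log2 fold change was -1.16 (edgeR adjusted p = 0.0688), and it was called in 4 of 6 other settings. The list summed to 1238 to 1377 CPM and 1394 to 1701 CPM in experiment 1, and to 1716 to 2606 CPM and 2365 to 2913 CPM in experiment 2. Of its 12 genes 5 had a group mean of at least 1 CPM with high stretch and 6 in each other group, so the sum does not describe the whole list.

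The 10 endothelial genes summed to 44.8 to 46.4 CPM without stretch and 26.9 to 36.8 CPM with low stretch in experiment 1, and to 69.1 to 80.5 CPM and 43.8 to 56.1 CPM in experiment 2, so that the stretched samples lay below the unstretched ones without overlap in both. Ehd3 was alone above 1 CPM in this list, so the sum was mostly that of Ehd3. The defining genes Cdh5 and Kdr were at most at 0.0171 CPM in any group mean. Ehd3 fell with low stretch (-0.48, edgeR adjusted p = 0.0147, called in 6 of 9 fits with 1 sample left out) and had -0.57 with high stretch (adjusted p = 0.133). The other tested endothelial genes had positive fold changes and were not called, 4 of 5 tested with low and 3 of 4 with high stretch. The shares called were thus 20% and 0%, beside 5.45% and 3.47% of all genes. Groups without overlap occurred in 1 of the 5 genes tested with low stretch and in all 4 with high stretch, beside 15.9% and 20.9% of all genes. With high stretch the summed level and most tested genes of this list therefore went in opposite directions.

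Of the 6 mesangial genes 4 passed the filter in each comparison. With low stretch 1 was lower and none higher, with 3 negative fold changes, 1 positive and a median of -0.31, and with high stretch none was called, with 2 of each sign. The shares called were 25% and 0%, beside 5.45% and 3.47% of all genes. Pdgfrb, a growth factor receptor gene, fell with low stretch (-0.56, edgeR adjusted p = 0.0199, called in 7 of 9 fits with 1 sample left out). With high stretch Pdgfrb had -0.42 (edgeR adjusted p = 0.357). The summed level, 1254 to 1988 CPM and 1511 to 3999.6 CPM in experiment 1 and 2615 to 7029 CPM and 6685 to 10423 CPM in experiment 2, was mostly that of the smooth muscle actin gene Acta2, which had 0.86 with low and 0.98 with high stretch and was not called (edgeR adjusted p = 0.136 and 0.269). The part of these lists in the claudin differences was not tested. In these bulk samples fewer cells that express a gene and less RNA of it per cell cannot be told apart.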

How the data were processed

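Polyadenylated RNA of 15 SVI samples was sequenced as stranded paired-end libraries, per the labels' protocols. The authors deposited raw counts per Ensembl gene and TPM per Ensembl transcript. The submitters' processing notes name STAR 2.7.5c, featureCounts, Subread 2.0.0, Salmon 1.9.0, DESeq2 1.38.3 and the build mm39; annotation version, strand setting and the counting of read pairs are not given in the sources used here. GENCODE M21 gave symbols for 52083 of 55416 genes and matched 137189 of 140789 transcripts; its GRCm38 coordinates name sequences only.

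The members and lists were chosen with earlier results of these data known. Named genes were all members, any other claudin called or at 1 CPM, up to 6 called genes with the largest change per list, a fixed set of junction and repressor genes, and the 5 genes most correlated with Cldn19 and with Cldn12. Results for 2 listed genes are not reported here. Cell type marker genes were named after their values were seen.

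The tests ran in R 4.3.3 and used the counts in edgeR 4.0.16 (filterByExpr, TMM scaling, quasi-likelihood F test, Benjamini-Hochberg adjustment over all genes tested, threshold 0.05), each stretched group with its own unstretched samples. The SE is the log2 fold change divided by the square root of F. Correlations were taken on log2 CPM (prior count 2). The tests were tested on simulated data. Nothing in the labels says that replicates came from separate cultures, so p-values measure the spread between these samples, which may be technical; no libraries were identical. Same-numbered samples did not deviate together (mean r of -0.0713 with low and 0.175 with high stretch, with negative pairs in each), so replicate numbers were not taken as pairs.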

Additional observations from a re-analysis of the deposited data

How the results depend on the processing

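The 5 claudins that reached 1 CPM were also 5 with plain total counts, with 1 TPM or with 1 CPM required in every sample of a group. No named gene that was called changed its direction under any alternative. With low stretch 1181 genes were called, against 2837 by DESeq2, 640 with all 15 samples in one fit, 490 with the replicate block, 6106 with the run block and 220 to 1630 with single samples left out. Claudins called were 2 by DESeq2 (Cldn1 added), 4 with the run block and 0 to 1 with single samples left out. Over the 6 other settings Cldn19 with low stretch was called in 5, Cldn1 and Cldn2 in 2 each and Cldn12 in 1. Tight junction genes called were 9 by DESeq2, 1 in one fit, 1 with the replicate block, 15 with the run block and 1 to 4 with samples left out, and regulators 6, 0, 1, 7 and 0 to 3. With high stretch 643 genes were called, against 1403 by DESeq2, 1050 without a filter, 1488 in one fit, 1546 with the replicate block, which equals the run block there, and 14 to 1421 with samples left out. Claudins called were 3 with the block and 0 to 4 with samples left out. Tight junction genes called were 4 by DESeq2, 5 in one fit, 5 with the block and 0 to 4 with samples left out, and regulators 2 by DESeq2, 2 without a filter, 4 with the block and 0 to 4. Between the unstretched groups claudins called were 2 by DESeq2, 2 without a filter, 3 in one fit, 3 with the replicate block and 0 to 3 with samples left out. The main fit called 1 there, beside 62.5% of all genes. The difference between the stretch effects gave 3 genes with the run block and 0 with the replicate block. With the replicate block, which left out low-stretch samples without a partner number, Cldn19 with low stretch had -3.77 and Cldn2 -1.91, as a description, and Cldn15 between the unstretched groups 1.22 (adjusted p = 0.0506). Where no cause is named here, it was not tested. A count of 3 limits what could be detected for the 5 claudins under 1 CPM.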
